A study of Drosophila melanogaster with 6 samples.

Results

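The genes of the eukaryotic initiation factors (eIFs) were examined in macrophages of Drosophila melanogaster on both sides of the onset of metamorphosis. The genes were taken by name: every protein-coding entry of the deposited count table whose symbol begins with eIF was included, which gave 43 of the 13395 genes of the table. The RNA came from hemocytes. These are the fly's blood cells and mostly plasmatocytes, the macrophages of the animal. In the prepupal group the donors were white prepupae and in the larval group wandering larvae of the L3 stage, with 3 libraries for each stage. All donors carried the genotype Hml-GAL4.delta, UAS-GFP, and the GFP-positive cells were collected with a cell sorter. The cells are therefore those in which the Hml driver was or had been active, not all hemocytes of the animal. Polyadenylated RNA was sequenced as single reads of 50 bp from libraries that keep no strand information. No label names the culture or animals behind a replicate, so that the p-values measure the spread between these libraries, which may be technical.

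Translation initiation brings the small ribosomal subunit to the start codon of an mRNA. The factor eIF2 carries the initiator tRNA and is recharged with GTP by eIF2B, while eIF1, eIF1A and eIF5 control the recognition of the start codon. The large complex eIF3 holds the small subunit, and eIF4E, eIF4G and the helicase eIF4A bind the cap of the mRNA and open its leader. At the end eIF5B joins the large subunit, whose premature joining is blocked by eIF6. Many of these steps are regulated by nutrients and stress in animal cells.

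The libraries held 19228352 to 22110219 counts in the prepupal and 21038176 to 25958543 counts in the larval group. Levels are given as CPM, the reads counted on a gene for every 1000000 in its library after TMM scaling, and changes as log2 fold changes of prepupal over larval. The driver gene Hml itself had 83.9 to 248 CPM in prepupal and 3208 to 6364 CPM in larval libraries. The summed level of 8 plasmatocyte markers, Hml among them, was 3916 to 5765 CPM in prepupal and 14447 to 21284 CPM in larval libraries. Of the 8 genes, 7 were lower and 1 was higher, against 27.3% and 26.6% of all tested genes. The sums for 4 crystal cell markers were 555 to 1472 CPM in prepupal and 2049 to 3211 CPM in larval libraries, and those for 5 lamellocyte markers were 520 to 642 CPM in prepupal and 1000 to 1398 CPM in larval libraries. Of the 4 tested lamellocyte genes, PPO3 was higher (log2 fold change 1.29) and cher was lower (-5.39), with 11.1 to 28.3 CPM in prepupal and 625 to 890 CPM in larval libraries. Much of the lamellocyte sum was mys, with 446 to 559 CPM in prepupal and 349 to 486 CPM in larval libraries. It was not called (0.24, FDR = 0.21), but was higher with the length trend removed (0.64). In any library ItgaPS4 had at most 1.29 CPM and atilla at most 0.68 CPM. Markers of other tissues stayed low, with 27.0 to 34.8 CPM in prepupal and 27.8 to 34.0 CPM in larval libraries for 6 fat body genes, of which Fbp1 (0.69) and Fbp2 (1.53) were called higher and Lsp1gamma (-0.46) lower. The sums were 5.79 to 9.19 CPM in prepupal and 5.60 to 8.37 CPM in larval libraries for 5 salivary gland genes, and 8.96 to 11.6 CPM in prepupal and 8.39 to 10.9 CPM in larval libraries for 4 muscle genes. For 3 germ line genes they were 0.198 to 0.787 CPM in prepupal and 0.363 to 0.945 CPM in larval libraries. The germ line genes vas and nos, the muscle gene Act88F and the lamellocyte genes atilla and ItgaPS4 had 0 counts in at least 1 library. The part of the cell markers in the values below was not tested, and a lower number of cells of a type and less RNA per cell cannot be told apart in such bulk samples.

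Of the 43 initiation factor genes, 35 had enough counts to be tested, and 8 did not pass the filter on low counts. Among the tested genes, 16 differed between the stages at a false discovery rate (FDR) below 0.05 in edgeR's quasi-likelihood test fitted over the whole table. This was 45.7% of them, against 53.9% of all 7914 tested genes. In prepupal hemocytes 5 genes were higher, against a background of 26.6% of all tested genes, and 11 were lower, against 27.3%. With libraries scaled by total counts alone, 3 were higher and 17 were lower, against 1456 and 2927 of all 7914 tested genes. The 5 higher genes were eIF1, eIF2Balpha, eIF2Bbeta, eIF3f1 and eIF4E6. The 11 lower genes were eIF1A, eIF5, eIF3a, eIF3b, eIF3l, eIF3m, eIF4EHP, eIF4G1, eIF4B, eIF4H1 and eIF6.

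The sizes of the changes were moderate. The median absolute log2 fold change was 0.27 over the 35 tested factors and 0.51 over all tested genes, and the signed medians were -0.10 and -0.03. Only eIF4E6, eIF4G1 and eIF5 had a log2 fold change of at least 1 in size, which makes 3 of 35 genes, against 21.4% of all tested genes. In 23 of the 35 genes the 3 prepupal libraries did not overlap with the 3 larval libraries, against 63.0% of all tested genes. The plot of all log2 fold changes by factor group shows that no group had all of its tested members called in one direction.

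**Figure D1:**
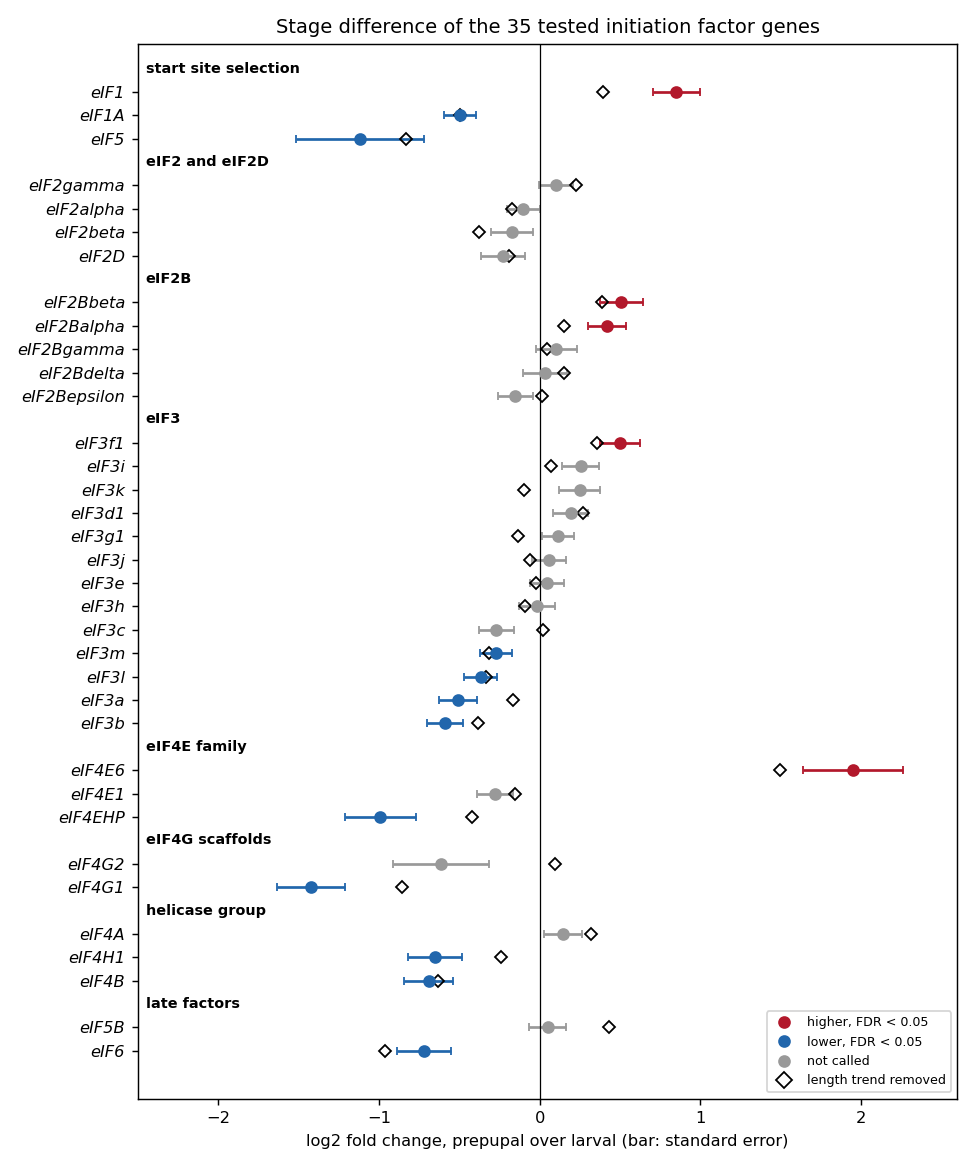
Log2 fold change of prepupal over larval hemocytes for the 35 tested initiation factor genes by group, with filled points for the fitted value, bars for its standard error and open diamonds for the value after removal of the length trend. The 5 genes called higher (red) and the 11 called lower (blue) are spread over several groups. Start site selection, eIF3 and the eIF4E family hold calls in both directions. The points of eIF4E6 (1.95) and eIF4G1 (-1.42) are the outermost.

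Summed over all 43 genes, the initiation factor RNA differed little between the stages under TMM scaling, and more under total counts. The sums were 9806, 10092 and 9727 CPM in the prepupal libraries and 10052, 10189 and 10263 CPM in the larval libraries. The ranges overlapped, and the log2 difference of -0.04 had p = 0.2 in a two-sided exact permutation test, for which 3 libraries against 3 allow no p below 0.1. Scaled by total counts alone, the sums were 9222 ± 146 CPM in prepupal and 10892 ± 398 CPM in larval hemocytes (SD, n = 3 each), with no overlap and a log2 difference of -0.24 (exact permutation p = 0.1, the smallest possible). The helicase gene eIF4A alone held 29.8% of these counts. Without it the sums averaged 6714 ± 136 CPM in prepupal and 7311 ± 158 CPM in larval hemocytes (SD, n = 3 each), a log2 difference of -0.12 under TMM scaling with no overlap (exact permutation p = 0.1, the smallest possible).

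The genes of start codon recognition moved in opposite directions. The gene eIF1 (FBgn0035423, chromosome 3L of dm6, 3223341 to 3224650) encodes the factor that guards against initiation at wrong codons. Its levels were 548, 685 and 494 CPM in prepupal and 286, 354 and 317 CPM in larval libraries, and the lowest prepupal library was higher than all larval ones. With a log2 fold change of 0.85 (SE 0.15, FDR = 0.0011, edgeR), or 1.80-fold, it had the second highest value of the tested factors. Its partner eIF1A (FBgn0026250, chromosome 3R, 18274665 to 18283005), which keeps the subunit open for scanning together with eIF1, had 186, 187 and 198 CPM in prepupal and 267, 258 and 280 CPM in larval libraries. Here every prepupal library was lower, with a log2 fold change of -0.49 (SE 0.10, FDR = 0.0026). Both calls held with any 1 library left out.

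The gene of eIF5, which triggers GTP hydrolysis on eIF2, was counted at a very low level of 16, 12 and 11 reads in prepupal and 54, 26 and 31 reads in larval libraries. It was called lower (log2 fold change -1.12, SE 0.40, FDR = 0.037). Of the 3203 exonic bp of eIF5, 2588 are shared with the gene CG46312 on the same strand, and only 615 bp are its own. CG46312 has no entry in the count table. The part of this overlap in the low count was not tested, and the call was kept in only 2 of the 6 fits without 1 library.

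**Figure D2:**
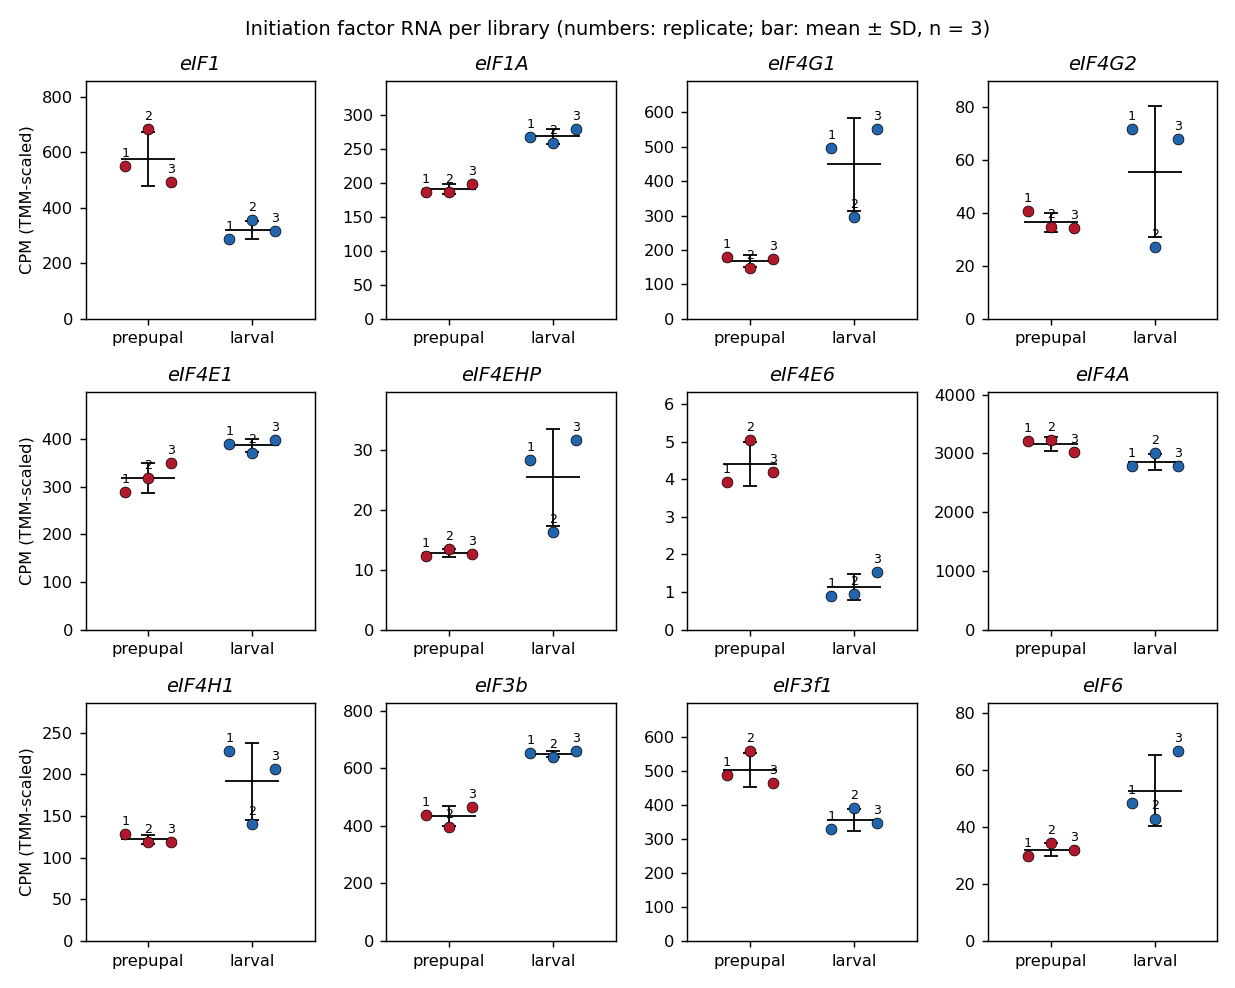
CPM of 12 initiation factor genes in each library, with red points for prepupal and blue points for larval libraries, replicate numbers beside the points, and the mean and SD of 3 libraries. The stages do not overlap except for eIF4G2, where larval replicate 2 (27.0 CPM) lies below the 3 prepupal libraries. Larval replicate 2 is also the lowest larval library for eIF1A, eIF4G1, eIF4E1, eIF4EHP, eIF4H1, eIF3b and eIF6.

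None of the 4 genes of eIF2 and eIF2D was called in the fit with TMM scaling alone. Under total counts alone eIF2alpha (-0.30, FDR = 0.030) and eIF2D (-0.42, FDR = 0.033) were called lower. With the length trend removed eIF2beta was called lower (-0.38, FDR = 0.036). The alpha subunit of eIF2, the target of the stress kinases, had 159, 183 and 161 CPM in prepupal and 177, 184 and 178 CPM in larval libraries (log2 fold change -0.10, SE 0.10). The ranges overlapped in this gene as they did in the other three. The log2 fold changes were -0.17 for eIF2beta, 0.10 for eIF2gamma, the subunit that binds GTP, and -0.23 for eIF2D, a factor that can deliver tRNA without eIF2, with FDR values between 0.19 and 0.43. Of the other genes around eIF2, the kinase gene Gcn2 was lower (log2 fold change -0.45, FDR = 0.014, edgeR) but not with the length trend removed (0.03, FDR = 0.82), while the kinase gene PEK (-0.30, FDR = 0.26) and crc, the fly gene of ATF4, whose translation depends on eIF2 phosphorylation (0.04, FDR = 0.82), were not called.

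For eIF2B, the exchange factor of eIF2, 2 of 5 subunit genes were higher (40%, against 26.6% of all tested genes). The others were not called. The regulatory subunit gene eIF2Bbeta had 64.2, 82.2 and 76.2 CPM in prepupal and 48.0, 58.7 and 49.7 CPM in larval libraries, without overlap (log2 fold change 0.51, SE 0.13, FDR = 0.00998). The regulatory subunit gene eIF2Balpha had 32.4, 39.1 and 34.2 CPM in prepupal and 26.3, 26.5 and 26.1 CPM in larval libraries. The larval libraries of this gene were almost equal and all lower (log2 fold change 0.42, SE 0.12, FDR = 0.013). The third regulatory subunit gene, eIF2Bdelta, had overlapping levels of 44.4 to 60.3 CPM in prepupal and 51.5 to 54.7 CPM in larval libraries (log2 fold change 0.04). The catalytic pair eIF2Bgamma and eIF2Bepsilon had log2 fold changes of 0.10 and -0.15, with an FDR of 0.51 and 0.26. The call of eIF2Balpha was lost without prepupal replicate 2 (0.34, FDR = 0.053). When libraries were scaled by total counts alone, neither of the higher subunits was called (0.22 and 0.31). In that scaling eIF2Bepsilon was called lower (-0.35, FDR = 0.024).

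The calls among the subunits of eIF3 went in both directions. Of 16 eIF3 genes, 13 were tested, and 38.5% of these were called, against 53.9% of all tested genes. Of the 13, 1 was higher (background 26.6%), 4 were lower (background 27.3%) and 8 were not called. The median log2 fold change of the 13 was 0.05. The gene eIF3b (FBgn0034237, chromosome 2R, 17536213 to 17539142) encodes a scaffold of the part of eIF3 that lies near the mRNA path. Its levels of 438, 397 and 467 CPM in prepupal libraries were all far below the narrow range of 652, 641 and 661 CPM in larval libraries (log2 fold change -0.59, SE 0.11, FDR = 0.0019). The largest subunit gene, eIF3a, had 465, 387 and 448 CPM in prepupal and 659, 589 and 603 CPM in larval libraries, and was lower as well (-0.51, SE 0.12, FDR = 0.0054).

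In the opposite direction, eIF3f1 (FBgn0037270, chromosome 3R, 4712882 to 4714182), whose product has an MPN domain, had 486, 559 and 463 CPM in prepupal and 328, 391 and 345 CPM in larval libraries. All prepupal libraries were higher (log2 fold change 0.50, SE 0.12, FDR = 0.0070). The other MPN gene, eIF3h, was not called, with 159 to 180 CPM in prepupal and 165 to 194 CPM in larval libraries (-0.02, FDR = 0.91). Among the 6 genes of PCI-domain subunits (a, c, e, k, l and m), 50% were called, against 53.9% of all tested genes. Of the 6, 3 were lower (background 27.3%) and none was higher (background 26.6%). Besides eIF3a these were eIF3l, with 223, 206 and 231 CPM in prepupal and 273, 293 and 285 CPM in larval libraries (-0.37, SE 0.10, FDR = 0.013), and eIF3m, with 271, 266 and 283 CPM in prepupal and 317, 334 and 338 CPM in larval libraries (-0.27, SE 0.10, FDR = 0.044). The stages did not overlap in either gene. The call of eIF3m was lost in each of the 6 fits without 1 library, and that of eIF3l without prepupal replicate 2 (-0.32, FDR = 0.056).

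The remaining subunits had small changes. The scaffold subunit gene eIF3c had 574, 511 and 555 CPM in prepupal and 670, 641 and 666 CPM in larval libraries (-0.27, FDR = 0.058). It was called lower with DESeq2 (-0.25, FDR = 0.049) and under total counts alone (-0.47, FDR = 0.0054). With the replicate number as a block it was called too (FDR = 0.031). So were eIF3i (FDR = 0.030) and eIF3k (FDR = 0.032), whose log2 fold changes without the block were 0.26 and 0.25. Without larval replicate 2 these last genes were also called (0.37 and 0.36). The gene eIF3d1, whose counterpart can bind caps in human cells, had a log2 fold change of 0.19 (FDR = 0.15), while eIF3e, eIF3g1 and eIF3j lay between 0.05 and 0.12.

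The subunits of eIF3 are assembled into one complex, so their RNA was also compared per length, as CPM per kb of exonic sequence. In prepupal hemocytes the means of the 13 tested genes ran over a 3.47-fold range, with 386 CPM per kb for eIF3f1 at the top and 111 CPM per kb for eIF3a at the bottom. In larval hemocytes the range was 2.43-fold, with 282 CPM per kb for eIF3i and 116 CPM per kb for eIF3j. The medians were 172 CPM per kb in prepupal and 183 CPM per kb in larval hemocytes. In rank, eIF3b moved most, with 162 ± 13.1 CPM per kb and place 9 in prepupal hemocytes, against 243 ± 3.75 CPM per kb and place 3 in larval hemocytes (SD, n = 3 each). In the order of levels, the prepupal means of eIF3f1, eIF3i and eIF3d1 were apart by more than the SD of either neighbour, as were eIF3e and eIF3g1, and eIF3b and eIF3j. The larval means were apart in this way between eIF3f1, eIF3b and eIF3m, between eIF3c and eIF3d1, between eIF3g1 and eIF3a, and between eIF3k and eIF3h. All other neighbours in either order were closer than the larger of their SDs, and no test was run on these levels. Division by kb keeps any trend of the stage difference with length. The prepupal extremes eIF3f1 and eIF3a have 1301 and 3892 exonic bp. With the length trend removed eIF3a was not called (-0.17, FDR = 0.18), while eIF3f1 (0.36) and eIF3b (-0.38) were. The part of length in the 2 ranges was not tested.

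**Figure D3:**
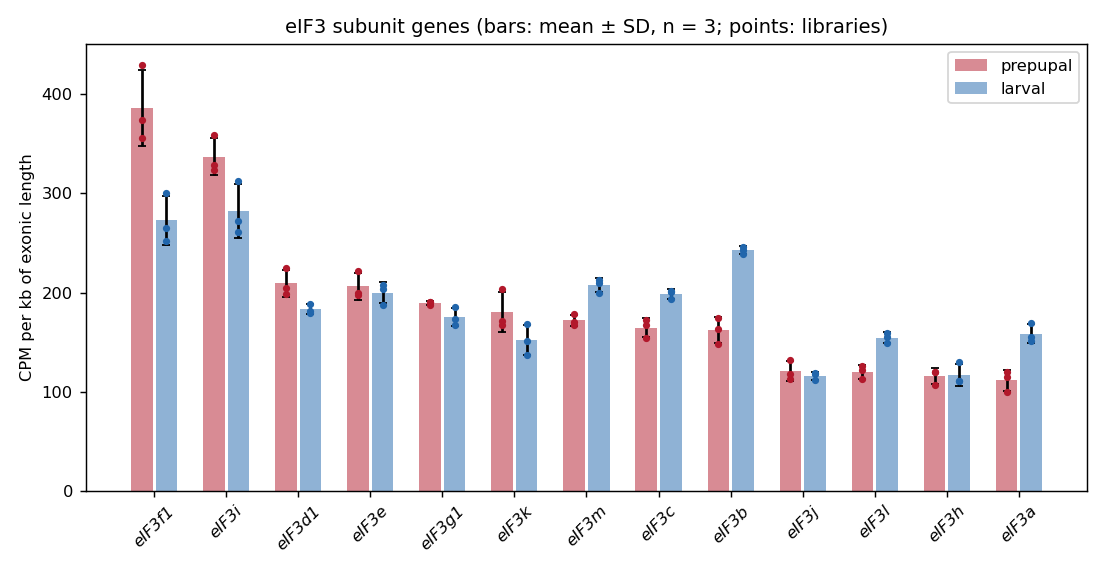
Level of the 13 tested eIF3 subunit genes as CPM per kb of exonic length, with red bars for prepupal and blue bars for larval hemocytes (mean and SD of 3 libraries) and points for the libraries. The bars run over a 3.47-fold range in prepupal and a 2.43-fold range in larval hemocytes, and eIF3b and eIF3a stand lower and eIF3f1 higher in prepupal hemocytes. Division by kb keeps any trend of the stage difference with length.

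The lowest log2 fold change among the initiation factors, except with the length trend removed, where eIF6 (-0.96) lay lower, was that of the scaffold eIF4G1 (FBgn0023213, chromosome 4, 915297 to 930715), which joins the cap-binding protein, the helicase and eIF3. Its RNA was at 179, 149 and 175 CPM in prepupal and 498, 296 and 553 CPM in larval libraries. Even the lowest larval library, replicate 2, was above all prepupal libraries, and the larval libraries were spread more widely (167 ± 16.5 CPM in prepupal and 449 ± 135 CPM in larval hemocytes; SD, n = 3 each). The log2 fold change was -1.42 (SE 0.21, FDR = 0.00048, edgeR), and between -1.62 and -1.23 with 1 library left out. The second scaffold gene eIF4G2, known for its role in the male germ line, had 40.5, 34.4 and 34.0 CPM in prepupal and 71.7, 27.0 and 67.6 CPM in larval libraries. Larval replicate 2 lay below all prepupal libraries, and the gene was not called (-0.61, SE 0.30, FDR = 0.11). Without that library it was (-0.91, FDR = 0.00016), and 779 of its exonic bp are shared with CG33111 on the same strand.

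Of the 7 genes of the cap-binding eIF4E family, 3 were tested. The main cap-binding gene eIF4E1 had 288, 318 and 351 CPM in prepupal and 389, 372 and 399 CPM in larval libraries. All prepupal libraries were lower, but the difference was not called (log2 fold change -0.28, SE 0.11, FDR = 0.062). It was called with the replicate block (FDR = 0.030), without prepupal replicate 3 (-0.35, FDR = 0.049) and under total counts alone (-0.47, FDR = 0.0084). The gene eIF4EHP, whose product binds caps without eIF4G and acts as a repressor of selected mRNAs in the fly embryo, had 12.3, 13.5 and 12.6 CPM in prepupal and 28.2, 16.3 and 31.7 CPM in larval libraries. Larval replicate 2 was again the lowest of its stage and still above all prepupal libraries. The gene was lower in prepupal hemocytes (log2 fold change -0.99, SE 0.22, FDR = 0.0045), and it shares 447 exonic bp with Syx1A on the same strand.

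The gene eIF4E6 (FBgn0039622, chromosome 3R, 29026439 to 29027174) stood out in the opposite direction at a low level. It had 3.94, 5.05 and 4.20 CPM in prepupal and 0.909, 0.954 and 1.55 CPM in larval libraries, from 70, 102 and 80 reads and from 25, 21 and 36 reads. Every prepupal library was more than double the highest larval library. Its log2 fold change of 1.95 (SE 0.31, FDR = 0.00076), or 3.87-fold, was the highest of the tested factors, and the call held with any 1 library left out. The genes eIF4E3, eIF4E4, eIF4E5 and eIF4E7 had at most 4, 3, 7 and 1 reads in any library and were not tested.

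In the helicase group, eIF4A was not called, while its tested cofactors were lower. The gene eIF4A, the RNA helicase of initiation, had 3218, 3234 and 3031 CPM in prepupal and 2780, 3013 and 2778 CPM in larval libraries. All prepupal libraries were slightly higher, but the difference was not called (log2 fold change 0.15, SE 0.12, FDR = 0.33). Its share of all initiation factor counts was 32.8, 32.0 and 31.2% in prepupal and 27.7, 29.6 and 27.1% in larval libraries. The cofactor gene eIF4B, which stimulates the helicase, had 8.72, 8.61 and 9.40 CPM in prepupal and 13.5, 13.3 and 16.3 CPM in larval libraries, with all prepupal libraries lower (-0.69, SE 0.15, FDR = 0.0041). The related cofactor gene eIF4H1 had 128, 118 and 119 CPM in prepupal and 228, 140 and 206 CPM in larval libraries, again without overlap and with larval replicate 2 nearest to the prepupal libraries (-0.65, SE 0.17, FDR = 0.0088).

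Of the late factors, eIF5B, the GTPase of subunit joining, was not called, with 203, 177 and 216 CPM in prepupal and 202, 194 and 180 CPM in larval libraries (log2 fold change 0.05, SE 0.11, FDR = 0.73). The gene eIF6 (FBgn0034915, chromosome 2R, 23849246 to 23850301), whose product also takes part in the making of the large ribosomal subunit, had 29.6, 34.3 and 32.0 CPM in prepupal and 48.4, 42.9 and 66.6 CPM in larval libraries. All prepupal libraries were lower (-0.72, SE 0.17, FDR = 0.0051), and the call held with any 1 library left out.

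Several factors have paralogs, and the ratio of their counts within a library needs no scaling for depth, although it keeps any trend with length. The leading copy dominated in the families eIF3d, eIF3f, eIF3g and eIF4H, in which eIF3d2, eIF3f2, eIF3g2 and eIF4H2 had at most 2, 1, 1 and 8 reads in any library and at most 0.176% of the counts of the leading copy. Of 11 pairs, 3 had enough reads for a test. The ratio of eIF4G2 to eIF4G1 was 22.6, 23.2 and 19.5% in prepupal and 14.4, 9.14 and 12.2% in larval libraries. The ratio of eIF4EHP to eIF4E1 was 4.27, 4.23 and 3.59% in prepupal and 7.25, 4.39 and 7.95% in larval libraries. The ratio of eIF4E6 to eIF4E1 was 1.37, 1.59 and 1.20% in prepupal and 0.233, 0.257 and 0.388% in larval libraries. The stages did not overlap in any of these, and the log2 differences were 0.89, -0.65 and 2.25 in this order. Each had p = 0.1 in a two-sided exact permutation test, the smallest that 3 libraries against 3 allow, and 0.1 after Benjamini-Hochberg adjustment over the 3 pairs. The paralogs differ in length, and with the length trend removed the fitted log2 fold changes were -0.42 for eIF4EHP and -0.15 for eIF4E1, 0.10 for eIF4G2 and -0.86 for eIF4G1, and 1.50 for eIF4E6.

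**Figure D4:**
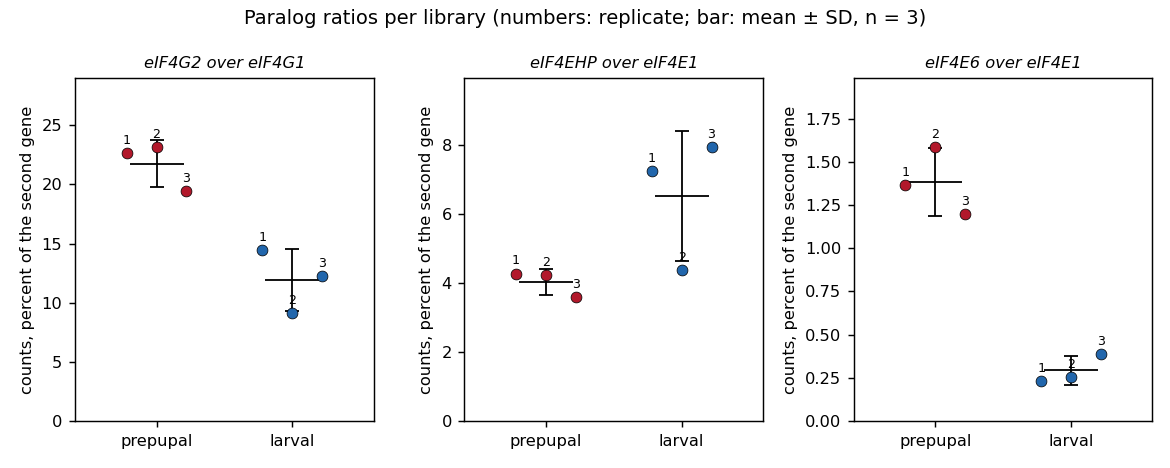
Counts of eIF4G2 as a percentage of those of eIF4G1, and of eIF4EHP and eIF4E6 as percentages of those of eIF4E1, in each library (red prepupal, blue larval, with mean and SD of 3 libraries). The stages do not overlap in the 3 panels, with the narrowest gap for eIF4EHP, where prepupal replicate 1 is at 4.27% and larval replicate 2 at 4.39%.

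The log2 fold change of the initiation factors went with the length of the gene. Over the 35 tested factors the Spearman correlation of exonic length with the log2 fold change was -0.66 (Pearson -0.70 with log2 length), against -0.40 over 7873 tested genes. Genes of one library share its depth and its preparation and are not independent, so the correlation is given as a description. The 12 factors shorter than 1500 bp had a median change of 0.25 on the log2 scale and held all 5 higher genes and 1 lower gene, eIF6. The 14 factors of 1500 to 2500 bp had a median of -0.13 with 4 lower genes, and the 9 longer ones a median of -0.61 with 6 lower genes.

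Libraries of one stage also differed along length. Against the other libraries of its stage, larval replicate 1 had a correlation with length of 0.82 and larval replicate 2 one of -0.52 over the 35 factors. The values for the prepupal replicates 1, 2 and 3 were 0.59, -0.72 and 0.26. In 26 of 35 factors larval replicate 2 was the larval library nearest to the prepupal mean. The plot of log2 fold change against length shows eIF6, short but lower, and eIF5B, long but near 0, away from this order. The part of length in the stage difference was not tested beyond the removal of the trend.

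**Figure D5:**
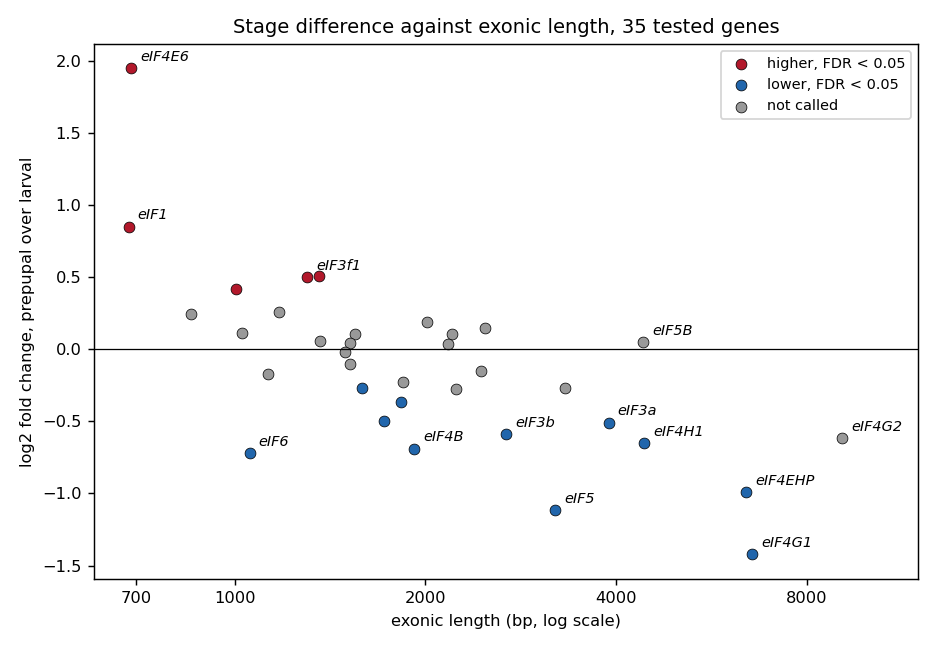
Log2 fold change of prepupal over larval hemocytes against exonic length in bp (log axis) for the 35 tested initiation factor genes, colored by call. The 5 genes called higher are shorter than 1500 bp, eIF6 is the only gene called lower in that range, and eIF4G1 is the lowest point.

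The comparison was therefore repeated after the relation with length had been removed in each library. Then 15 of the 35 factors were called, against 51.2% of all tested genes, with 7 higher (background 29.1%) and 8 lower (background 22.1%). The correlation with length was -0.24. Of the 16 calls, 11 were kept in the same direction, among them eIF1 (log2 fold change 0.40, FDR = 0.0099), eIF4E6 (1.50, FDR = 0.0022), eIF4G1 (-0.86, FDR = 0.00041), eIF6 (-0.96, FDR = 0.00080), eIF1A (-0.50), eIF3b (-0.38) and eIF3f1 (0.36). The 5 calls of eIF2Balpha (0.15), eIF3a (-0.17), eIF4EHP (-0.42, FDR = 0.056), eIF4H1 (-0.24) and eIF5 (-0.83, FDR = 0.096) were lost. In their place eIF2beta was called lower (-0.38, FDR = 0.036), and eIF3d1 (0.27, FDR = 0.039), eIF4A (0.32, FDR = 0.031) and eIF5B (0.43, FDR = 0.0082) were called higher. The value of eIF4G2 was 0.10 in this fit and was not called.

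Other genes of translation were taken from a list of 28, of which 27 were in the table and all of these were tested. Of them 3 were higher (background 26.6% of all tested genes), 10 were lower (background 27.3%) and 14 were not called, with a median log2 fold change of -0.30. The elongation factor gene eEF2 had 2901, 2346 and 2805 CPM in prepupal and 4405, 4332 and 4583 CPM in larval libraries, all prepupal libraries lower (-0.73, SE 0.13, FDR = 0.0016, edgeR). The summed level of 7 elongation factor genes was 12596 to 14341 CPM in prepupal and 20570 to 22305 CPM in larval libraries, with 1 gene higher and 3 lower. With the length trend removed, the higher gene, eEF5 (0.37), was no longer called, and eEF1beta (-0.36) and eEF1delta (-0.33) were called lower. Of the 3 termination and recycling genes 1 was higher and 2 were lower (1 of them, pix, not with the length trend removed), and of the 6 genes around the eIF2 kinases 1 was higher, MCTS1 (0.68), and 1 was lower, Gcn2. With the replicate number as a block DENR was called higher as well (0.45, FDR = 0.0079).

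Among 11 regulators of the cap complex and of mRNAs, none was higher (background 26.6% of all tested genes) and 4 were lower (background 27.3%). With the replicate number as a block NAT1 (FDR = 0.044), Paip2 (-0.54, FDR = 0.017) and S6k (-0.36, FDR = 0.029) were called lower too. In that fit 59.8% of all tested genes were called. The gene larp, which encodes a binding protein of mRNA 5' ends, had 33.9, 20.7 and 31.1 CPM in prepupal and 122, 41.1 and 135 CPM in larval libraries (log2 fold change -1.80, SE 0.38, FDR = 0.0032). The kinase gene Lk6, whose product phosphorylates eIF4E, had 166, 138 and 146 CPM in prepupal and 419, 253 and 399 CPM in larval libraries (-1.25, SE 0.18, FDR = 0.00047). Both stayed lower with the length trend removed (-1.09 and -0.67), and in both larval replicate 2 was the lowest larval library. The other lower genes were 4E-T (-0.92) and the helicase gene bel (-0.67). With the length trend removed, mxt (0.29) and Tor (0.61) were called higher. Without the block, the eIF4E-binding repressor gene Thor (-0.40, FDR = 0.33), the eIF4G relative NAT1 (-0.29, FDR = 0.12) and the poly(A)-binding protein gene pAbp (-0.16, FDR = 0.42) were not called.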

How the data were processed

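RNA of sorted Hml+ hemocytes from 3 prepupal and 3 larval samples was sequenced. The authors trimmed the reads with trimmomatic, aligned them with STAR to dm6 with an Ensembl annotation and deposited raw counts per gene without normalization or pooling. Their processing notes list featureCounts. Its settings are not stated in the sources used here, and the counts of overlapping genes are uncertain, since 17 initiation factor genes share exonic bases with another gene. Columns were matched to samples by name.

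The tests were run with edgeR 4.0.16 under R 4.3.3. Genes were filtered with filterByExpr at a minimum count of 10, scaled by TMM and tested by quasi-likelihood, with a Benjamini-Hochberg FDR below 0.05 over all tested genes. The SE was taken as the absolute log2 fold change over the root of its F statistic. Exonic lengths came from a later annotation of the same assembly, with identical coordinates for all 43 genes. To remove the length trend, log2 CPM was smoothed against length by loess (span 0.5) per library, and the curve entered edgeR as an offset. Paralog ratios used a pseudocount of 0.5. Single values were compared by exact permutation.

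The genes, lists and tests were chosen with earlier results of these data known. All initiation factors are named whatever their values. Of the other translation genes, called genes with a log2 fold change of at least 1 in size and a few fixed genes are named with full values, and the rest to complete a count, chosen after their values were seen. The gene cup of the list and promoter motifs were not analysed here. Alternatives were other scalings and filters, DESeq2 1.42.0, limma-voom (limma 3.58.1), the replicate number as a block, the removal of the length trend, stricter thresholds and each library left out. Around the stage means, same-numbered libraries deviated together, with correlations of 0.28, 0.30 and 0.10 for replicates 1, 2 and 3, all above 0.1, so the numbers were treated as pairs in the block, although the meaning of a replicate number is not stated. The scripts were tested on simulated data. The libraries of a stage differed beyond sampling noise (chi-square per degree of freedom of 28.2 to 99.5), so none was counted as a duplicate.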

Additional observations from a re-analysis of the deposited data

How the results depend on the processing

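The number of initiation factors called was 16, and between 12 and 18 with 1 library left out, while over the whole table it was 4264 and between 3251 and 4552. With at least 2-fold also required, 3 factors (1 higher, 2 lower) and 1580 genes of the table (621 higher, 959 lower) were called. These were 8.57% of the tested factors and 20% of all tested genes. DESeq2 and limma-voom each called 16 factors (45.7%), against 53.8% and 54% of all tested genes. An FDR of 0.01 called 12 factors (34.3%), against 37.1% of all tested genes. The replicate block called 20 factors (57.1%), against 59.8% of all tested genes. It added eIF3c, eIF3i, eIF3k and eIF4E1 and changed no other call of a factor. With the length trend removed as well, these 4 calls were lost (eIF3i 0.073, eIF4E1 -0.15). Scaling by total counts alone put the median of all tested genes at -0.22 on the log2 scale. It called 3 factors higher and 17 lower, so that 15% of the calls of factors were higher. This share was 31.2% in the fit with TMM scaling alone and 46.7% with the length trend removed. Over the whole table the shares of higher calls in these fits were 33.2%, 49.4% and 56.9%, in this order. Every reversal was in a gene that was not called in the fit with TMM scaling alone. Of these genes, eIF3d1, eIF4A and eIF5B were called higher with the length trend removed. Under total counts eIF2Bepsilon, eIF3c and eIF4G2 were called lower, and with the replicate block eIF3c lower and eIF3k higher. The reversals under total counts were eIF2gamma (-0.094), eIF2Bdelta (-0.16), eIF2Bgamma (-0.092), eIF3d1 (-0.0054), eIF3e (-0.15), eIF3g1 (-0.081), eIF3j (-0.14), eIF4A (-0.052) and eIF5B (-0.14). With the length trend removed, and in parentheses with the replicate block as well, they were eIF2Bepsilon at 0.016 (0.017), eIF3c at 0.024 (0.024), eIF3e at -0.020 (-0.020), eIF3g1 at -0.13 (-0.14), eIF3j at -0.062 (-0.063), eIF3k at -0.098 (-0.098) and eIF4G2 at 0.096 (0.13). With 1 library left out, the log2 fold changes ran between -0.040 and 0.17 for eIF2Bdelta, -0.0086 and 0.11 for eIF3e, -0.0071 and 0.11 for eIF3j, -0.013 and 0.13 for eIF5B, and -0.048 and 0.094 for eIF3h. The call of eIF5 was lost with DESeq2 (-1.10) and without the low-count filter (-1.13), and that of eIF3m with DESeq2 size factors (-0.25) and without the filter (-0.28). Without the filter eIF4G2 was called (-0.62), as under total counts (-0.82). DESeq2 also called eIF3c lower (-0.25). The causes were not tested. At this depth no difference could be tested for the 8 genes with 0 to 8 reads in any library.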

Other observations

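The table holds a pair of initiation factors under other symbols, which were looked up after the values of the other genes had been seen. CG7414, named eIF2A in the RefSeq gene table, had 265, 241 and 232 CPM in prepupal and 325, 369 and 324 CPM in larval libraries. All prepupal libraries were lower (log2 fold change -0.46, FDR = 0.0062, edgeR), and the call was lost with the length trend removed (-0.24, FDR = 0.10). CG7483, for which that table gives the synonym eIF4AIII, a helicase of the exon junction complex, had 95.0, 123 and 102 CPM in prepupal and 85.9, 99.5 and 82.4 CPM in larval libraries. The ranges overlapped, and the gene was not called (0.25, FDR = 0.13) except with the replicate number as a block (FDR = 0.032).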
